A study of Homo sapiens with 8 samples.

Results

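The enzymes that make serine and pass its carbon through folate are described here as the transcripts of 9 genes out of 17131 in RNA-seq of HaCaT cells, an established human keratinocyte line labelled wild type. The 9 genes, with their Entrez identifiers, are PHGDH (26227), PSAT1 (29968), PSPH (5723), SHMT1 (6470), SHMT2 (6472), MTHFD1 (4522), MTHFD1L (25902), MTHFD2 (10797) and ALDH1L2 (160428). They were chosen by their names, with the outcome of the same comparison already known. All 8 libraries came from cultures under M5, a cocktail of oncostatin M, TNF-α, IL-1α, IL-17A and IL-22 that imitates the psoriatic milieu. Each of the 5 cytokines was given at 10 ng/mL for 24 h, and 4 libraries were titled M5_O5 and 4 M5. OTS514 is an inhibitor of TOPK, a mitotic kinase encoded by PBK. In the inhibited arm it was added at 10 nM from 12 h before the cytokines, while the design entry names 24 h with or without inhibitor. The titles and the entered treatments name opposite groups as inhibited: the M5_O5 libraries carry an entry of no treatment and the M5 libraries carry the TOPK inhibitor. Every direction below is therefore given between titles, and which group received OTS514 is not assigned. No culture without M5 was analysed, and nothing in the labels says whether the replicates were separate cultures, so p-values measure the spread between these libraries, which may be technical.

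Total estimated counts per library ranged from 13708055 to 16922693, with M5_1 the lowest. All 10 keratinocyte marker genes were measured at high levels, from 289 CPM for KRT16 to 4803 CPM for KRT17 as M5_O5 means. At an adjusted p-value under 0.05 in edgeR's test, 6 of them were lower in M5_O5, as were 17.6% of all tested genes. None of the 10 differed 2-fold. CPM stands for counts scaled to a common library size, here after TMM normalization between libraries. Of the markers of other cell types, PTPRC of leukocytes was at 0 in every library, and PECAM1 of endothelial cells was at most 0.0653 CPM. The summed fibroblast markers lay between 33.0 and 36.6 CPM in M5_O5 and between 43.1 and 58.3 CPM in M5, nearly all of it COL1A1. Endothelial markers summed to between 3.10 and 3.79 CPM in M5_O5 and between 0.249 and 1.05 CPM in M5, most of it CDH5 at a mean of 2.93 CPM in M5_O5. Leukocyte markers summed to between 31.7 and 37.4 CPM in M5_O5 and between 36.2 and 40.4 CPM in M5, nearly all of it CD14, and melanocyte markers reached at most 1.09 CPM. Enough counts for the test were found for 3 of 6 fibroblast, 1 of 3 endothelial, 1 of 5 leukocyte and 0 of 3 melanocyte markers. The part of these markers in the results below was not tested.

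Serine is made from the glycolytic intermediate 3-phosphoglycerate in a short chain of reactions. PHGDH oxidizes it, PSAT1 transfers an amino group to the product and PSPH removes the phosphate. SHMT1 in the cytosol and SHMT2 in mitochondria then split serine into glycine and a one-carbon unit carried by folate. MTHFD2 and MTHFD1L oxidize that unit in mitochondria and release it as formate, ALDH1L2 burns it to carbon dioxide, and the trifunctional MTHFD1 takes up formate in the cytosol. The carbon is spent on purines, thymidylate and methionine, so proliferating cells draw heavily on this route, and ATF4, the transcription factor of the amino acid response, is known to drive many of these genes.

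Promoters of 6 of the 9 genes were found in the RefSeq table of GRCh38.p14, in 9 windows that run from 250 bases before to 50 bases after a transcription start. PSPH, SHMT2 and ALDH1L2 were not matched. The 250 bases before the start are given 5′ to 3′, for the first enzymes of serine synthesis and for the related MTHFD1 and MTHFD1L, the last in 1 of its 4 windows, which lie far apart in how much they differed between the groups. Capitals mark CCAAT, the E-box CACGTG and the C/EBP-ATF response element TGATGNAAN.
PSAT1 (chr9:78296875-78297124, plus strand): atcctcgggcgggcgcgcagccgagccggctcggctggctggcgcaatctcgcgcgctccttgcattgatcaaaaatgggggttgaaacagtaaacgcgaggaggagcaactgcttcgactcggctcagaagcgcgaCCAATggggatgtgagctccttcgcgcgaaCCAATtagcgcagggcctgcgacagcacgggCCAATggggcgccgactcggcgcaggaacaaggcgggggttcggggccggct
PHGDH (chr1:119711684-119711933, plus strand): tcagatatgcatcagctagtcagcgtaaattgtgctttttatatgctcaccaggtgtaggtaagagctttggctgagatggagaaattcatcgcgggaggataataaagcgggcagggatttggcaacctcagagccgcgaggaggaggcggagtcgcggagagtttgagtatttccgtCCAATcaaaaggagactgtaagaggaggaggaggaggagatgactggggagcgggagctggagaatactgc
MTHFD1 (chr14:64388103-64388352, plus strand): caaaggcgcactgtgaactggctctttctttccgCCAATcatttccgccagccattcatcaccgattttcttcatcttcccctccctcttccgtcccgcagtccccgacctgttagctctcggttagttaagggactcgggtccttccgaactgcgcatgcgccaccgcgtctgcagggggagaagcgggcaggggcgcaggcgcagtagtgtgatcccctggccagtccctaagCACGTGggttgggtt
MTHFD1L (chr6:150866236-150866485, plus strand): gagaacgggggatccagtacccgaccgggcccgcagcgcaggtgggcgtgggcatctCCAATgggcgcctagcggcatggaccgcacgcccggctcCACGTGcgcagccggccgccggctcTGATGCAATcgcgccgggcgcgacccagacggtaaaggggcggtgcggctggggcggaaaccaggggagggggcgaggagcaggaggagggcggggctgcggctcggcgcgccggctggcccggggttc

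The C/EBP-ATF response element, the sequence at which ATF4 and C/EBP proteins pair, was matched only in MTHFD1L, as TGATGCAAT from −129 to −121 before the start shown. Among all promoters in the table, 3.61% of 35116 windows hold such a match. CACGTG was found in MTHFD1 and in MTHFD1L and in 7.26% of all windows. The CRE sequence TGACGTCA, in 1.85% of all windows, and the AP-1 sequence TGAGTCA, in 4.95%, were found in none of the 9 windows. CCAAT was added to the search after the sequences had been read, so nothing is read from the difference to the table. It was found in a window of all 6 matched genes, against 39.7% of all genes in the table. PSAT1 holds it 3 times, at −113, −83 and −52. All 5 motifs were searched on both strands, and their matches do not overlap one another in the windows printed. A match describes letters, and no binding was measured.

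PSAT1 differed most between the groups. Its level was 24.5, 40.7, 40.5 and 34.3 CPM in M5_O5 libraries 1 to 4 and 10.2, 3.72, 4.67 and 6.04 CPM in M5 libraries 1 to 4. The groups were far apart, with the highest M5 library, M5_1, below the lowest M5_O5 library, M5_O5_1. The fold change of M5_O5 over M5 was 5.74, or 2.52 ± 0.23 on the log2 scale (SE, n = 4 per group). Nearly all PSAT1 counts lay on the transcript NM_058179, with a mean share of 95.5% ± 1.37 (SD, n = 4) in M5_O5 and 92.6% ± 9.44 in M5. The shorter form NM_021154 held the rest, which reached 19.8% in M5_1.

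PHGDH, the entry enzyme, measured 11.5, 16.7, 18.3 and 14.7 CPM in M5_O5 and 13.1, 6.27, 3.69 and 4.17 CPM in M5. Here the groups overlapped, because M5_1 stood above M5_O5_1 while the other 3 M5 libraries were well below every M5_O5 library. The fold was 2.28, with a log2 fold change of 1.19 ± 0.28 (SE), the widest error of the 8 genes tested. It was 1.697 without M5_1 and 0.98 without M5_3, and in the latter case PHGDH no longer reached a 2-fold difference. Expressed as a share of the way from the mean of the other 3 M5 libraries to the M5_O5 mean in log2(CPM + 1), M5_1 lay at 87.8% for PHGDH and at 36.9% for PSAT1. For MTHFD2 the same share was 8.63%, and for SHMT2 M5_1 lay on the far side of the other M5 libraries at −31.4%.

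PSPH, the last step, was the least abundant enzyme of serine synthesis. It was counted at 10.9, 10.1, 11.9 and 9.51 CPM in M5_O5 and at 5.11, 4.70, 2.70 and 3.99 CPM in M5. All M5_O5 libraries were above all M5 libraries, and the M5_O5 libraries lay close together. The fold was 2.58, with a log2 fold change of 1.37 ± 0.16 (SE). Its counts were spread over 24 transcript rows of which 20 held any, and no row took more than 29.9% in a library.

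Summed over PHGDH, PSAT1 and PSPH, the M5_O5 libraries held 46.9, 67.5, 70.8 and 58.5 CPM and the M5 libraries 28.5, 14.7, 11.1 and 14.2 CPM. The library M5_O5_1 was lowest of its group and M5_1 highest of its group, so that these libraries came nearest to each other. The plot of the 9 genes by library shows the same order for PSAT1, PHGDH and MTHFD2. It is absent for PSPH and MTHFD1 within M5_O5, for MTHFD1L within M5 and for the SHMT genes.

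**Figure D1:**
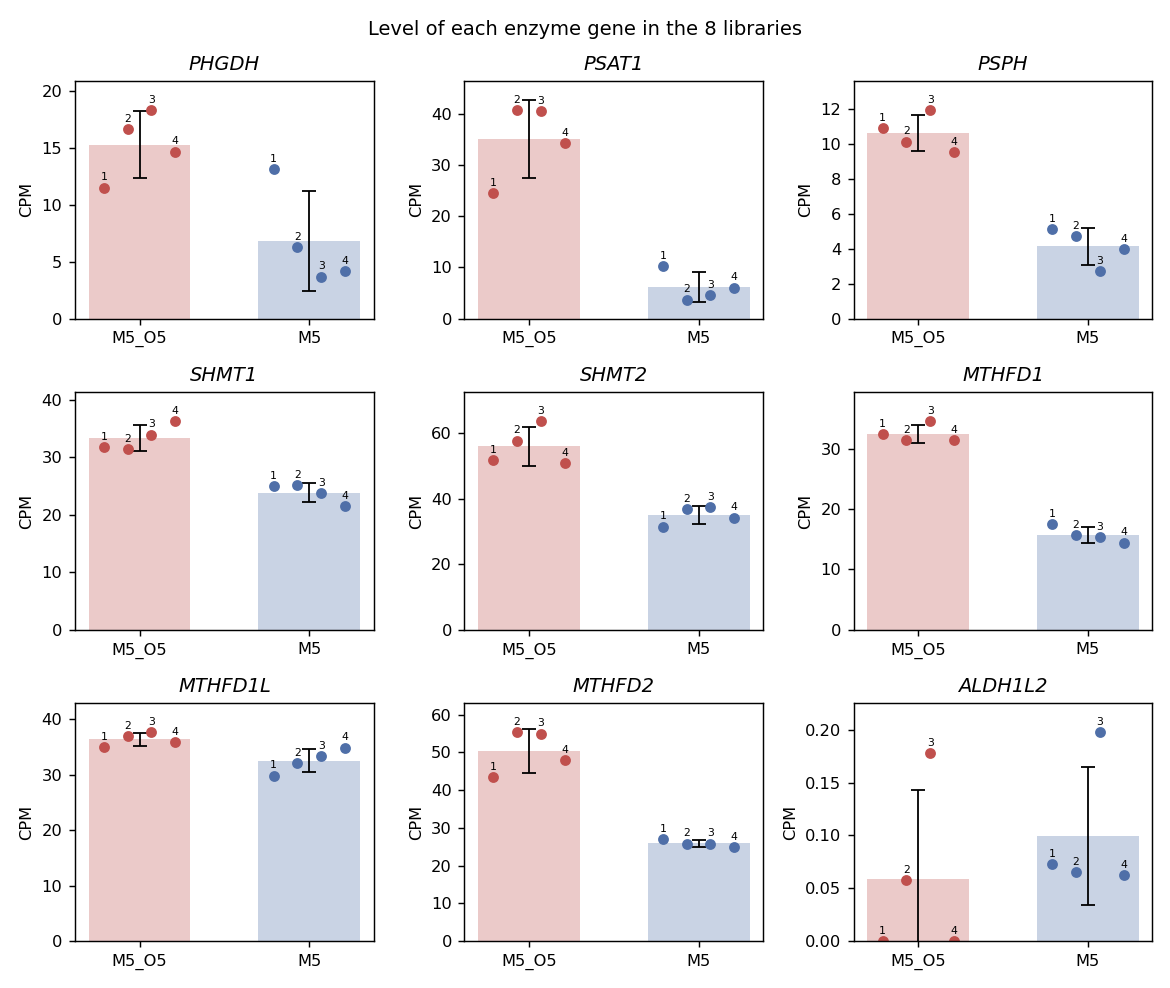
Level of each of the 9 genes in every library, in TMM-scaled CPM on a linear axis from 0, with points for libraries, numbered by replicate, bars for the mean and error bars for the SD of 4 libraries per title. In CPM all M5_O5 libraries lie above all M5 libraries in 7 genes, which holds for 17.8% of all tested genes, and the reverse for 15.8%. MTHFD1L, one of the 7, overlaps in TPM. PHGDH overlaps through M5_1 at 13.1 CPM, and ALDH1L2 stays at or below 3 counts.

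SHMT2, which works in mitochondria, measured 51.7, 57.7, 63.5 and 50.7 CPM in M5_O5 and 31.5, 36.7, 37.5 and 34.2 CPM in M5. The groups did not overlap, and M5_1 was the lowest library of all. The fold was 1.60, with a log2 fold change of 0.68 ± 0.08 (SE). The transcript NM_005412 held 90.5% ± 4.34 (SD, n = 4) of SHMT2 counts in M5_O5 and 95.7% ± 1.22 in M5.

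Its cytosolic counterpart SHMT1 measured 31.7, 31.4, 34.0 and 36.3 CPM in M5_O5 and 25.0, 25.2, 23.8 and 21.5 CPM in M5. Again all M5_O5 libraries were higher, by a fold of 1.40 and a log2 fold change of 0.48 ± 0.08 (SE). Further placements of its transcripts, listed with identical values, held 40.3% of the SHMT1 counts in the sum. Without them SHMT1 reached 14.9 ± 1.45 TPM (SD, n = 4) in M5_O5 and 9.78 ± 1.33 TPM in M5, and the log2 fold change stayed at 0.48. TPM is the deposited abundance unit that also takes transcript length into account.

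MTHFD1, the cytosolic enzyme with 3 activities, measured 32.4, 31.4, 34.6 and 31.4 CPM in M5_O5 and 17.5, 15.7, 15.3 and 14.5 CPM in M5. Both groups were tight and lay well apart. The fold was 2.06, with a log2 fold change of 1.04 ± 0.08 (SE), which places MTHFD1 just above a 2-fold difference. NM_005956 carried on average 98.7% of its counts in M5_O5 and 98.8% in M5.

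MTHFD2, the mitochondrial dehydrogenase and cyclohydrolase, measured 43.5, 55.3, 55.0 and 48.0 CPM in M5_O5 and 27.0, 25.8, 25.8 and 24.8 CPM in M5. The M5 libraries were nearly equal, and the lowest M5_O5 library, M5_O5_1, was far above them. The fold was 1.95, with a log2 fold change of 0.965 ± 0.081 (SE), just below a 2-fold difference. Its counts were divided between NM_006636, with a mean share of 44.7% in M5_O5 and 45.2% in M5, and the predicted transcript XM_006711924 with the remainder.

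MTHFD1L, which releases formate from mitochondria, differed least. It measured 35.0, 37.0, 37.6 and 35.95 CPM in M5_O5 and 29.9, 32.1, 33.3 and 34.9 CPM in M5. The groups only just failed to overlap, as M5_4 lay next to M5_O5_1, and on the TPM scale they overlapped, with an M5_O5 minimum of 19.5 TPM and an M5 maximum of 20.3 TPM. The log2 fold change was 0.16 ± 0.07 (SE), a fold of 1.12. The counts of MTHFD1L were spread over 24 transcript rows, and the share of NM_001242767 alone ran from 1.64% to 58.1% between libraries.

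ALDH1L2, the mitochondrial enzyme that oxidizes formyl-folate, was counted at 0, 1, 3 and 0 reads in M5_O5 and at 1, 1, 3 and 1 reads in M5. No library exceeded 3 counts, which correspond to 0.172 to 0.219 CPM depending on the library, so ALDH1L2 was not tested and no fold is given. Its counts were summed over 3 predicted transcripts.

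In all, 8 of the 9 genes entered the test, and all 8 had higher means in M5_O5. PHGDH, PSAT1, PSPH and MTHFD1 were called higher, that is, with an adjusted p-value under 0.05 in edgeR's quasi-likelihood test and at least a 2-fold difference, and none was called lower. Across 12434 tested genes, 2.87% were called higher and 0.330% lower. At the adjusted p-value alone, 7 of the 8 genes were higher, MTHFD1L being the exception, where 19.5% of all tested genes were higher and 17.6% lower. In 7 of the 8 genes all M5_O5 libraries lay above all M5 libraries, which held for 17.8% of all tested genes, while the reverse held for none of the 8 and for 15.8% of all. No gene of the 8 was lower at an unadjusted p-value under 0.05 or in DESeq2. These counts describe genes chosen with this comparison known, and nothing is read from the difference to the background. The median log2 fold change was 1.005 over the 8 genes and 0.01 over all genes tested.

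The step-by-step order of levels also differed between the groups. On the TPM scale, SHMT2 was the most abundant of the 9 genes in both groups, at 49.8 ± 4.13 TPM (SD, n = 4) in M5_O5 and 28.5 ± 0.976 TPM in M5. In M5_O5 it was followed by MTHFD2 at 36.4 ± 2.21 TPM, and the ranges of these did not overlap. PSAT1 came next at 30.3 ± 5.67 TPM, overlapping MTHFD2 above it and SHMT1 below it. SHMT1, MTHFD1L, MTHFD1 and PHGDH followed, each overlapping its neighbour, from 24.9 ± 2.07 TPM for SHMT1 to 16.0 ± 2.59 TPM for PHGDH. Without its further placements SHMT1 measured 14.9 TPM, with a range of 13.8 to 17.0 TPM, and ranked below PHGDH, whose range it overlapped, and above PSPH, and it no longer overlapped PSAT1. PSPH stood apart below them at 9.52 ± 1.04 TPM.

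In M5, SHMT2 was followed by MTHFD1L at 18.5 ± 1.57, MTHFD2 at 17.1 ± 1.07 and SHMT1 at 16.3 ± 1.78 TPM, 3 genes with overlapping ranges. MTHFD1 at 8.37 ± 1.21 TPM did not overlap them. Below it PHGDH at 6.77 ± 4.89, PSAT1 at 5.06 ± 2.78 and PSPH at 3.33 ± 0.924 TPM each overlapped the gene above. The range of PHGDH, 3.49 to 13.97 TPM, held the whole range of MTHFD1, 7.54 to 10.16 TPM. Without its further placements SHMT1 measured 9.78 TPM, with a range of 8.40 to 11.3 TPM, which overlapped MTHFD1 and no longer MTHFD2. PSAT1 ranked 3 in M5_O5 and 7 in M5 either way.

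**Figure D2:**
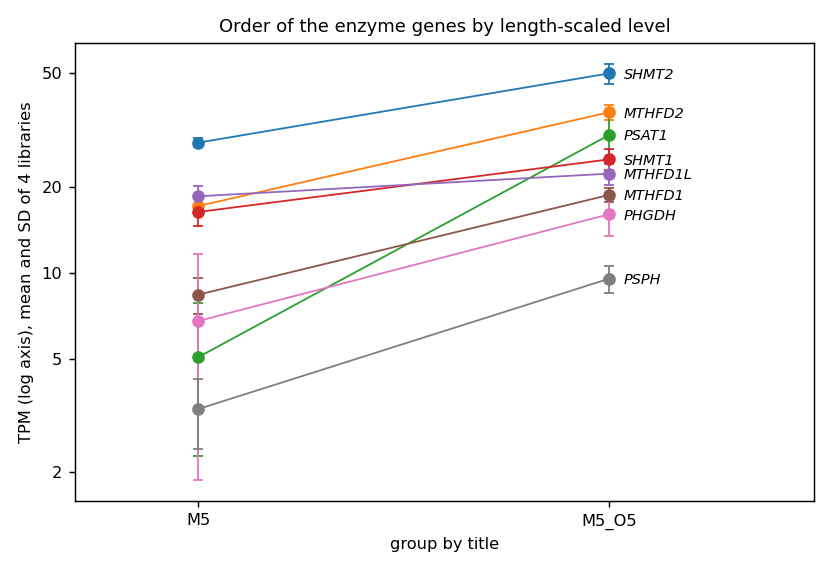
Level of 8 of the genes, without ALDH1L2, in TPM on a log axis for each title, with points for the mean and bars for the SD of 4 libraries and a line joining the means of a gene. SHMT2 leads both groups at 49.8 and 28.5 TPM, while PSAT1 falls from rank 3 in M5_O5 to rank 7 in M5.

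Ratios of TPM taken within a library compare enzymes of neighbouring steps. PSAT1 stood at 1.88 ± 0.116 times PHGDH in M5_O5 (SD, n = 4) and at 0.847 ± 0.335 times PHGDH in M5, with ranges of 1.76 to 2.02 and 0.490 to 1.21 that did not overlap. PSPH had nearly the same mean ratio to PHGDH in both groups, 0.608 ± 0.135 and 0.592 ± 0.193, which rested on M5_O5_1 at 0.808 and M5_1 at 0.322. The other libraries held 0.510 to 0.562 in M5_O5 and 0.614 to 0.777 in M5. MTHFD1L was 1.18 ± 0.0487 times MTHFD1 in M5_O5 and 2.25 ± 0.410 times MTHFD1 in M5, again without overlap. MTHFD2 was 1.95 ± 0.199 times MTHFD1 in M5_O5 and 2.06 ± 0.168 times in M5, where the ranges overlapped. The ratio of mitochondrial SHMT2 to cytosolic SHMT1 was 2.02 ± 0.266 and 1.76 ± 0.187, which also overlapped, and without the further placements of SHMT1 it was 3.38 ± 0.532 and 2.96 ± 0.420. The ratio of MTHFD2 to its paralog MTHFD2L was 17.2 ± 3.73 in M5_O5 and 10.7 ± 0.943 in M5.

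Spread within a group differed from gene to gene. In M5 the coefficient of variation of the CPM was 64.0% for PHGDH, 46.5% for PSAT1 and 25.7% for PSPH, and it was at most 8.19% for the 5 other genes tested. In M5_O5 it was 21.7% for PSAT1 and 19.1% for PHGDH, against 3.19% for MTHFD1L. The map of levels against the M5 mean shows the same spread library by library.

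**Figure D3:**
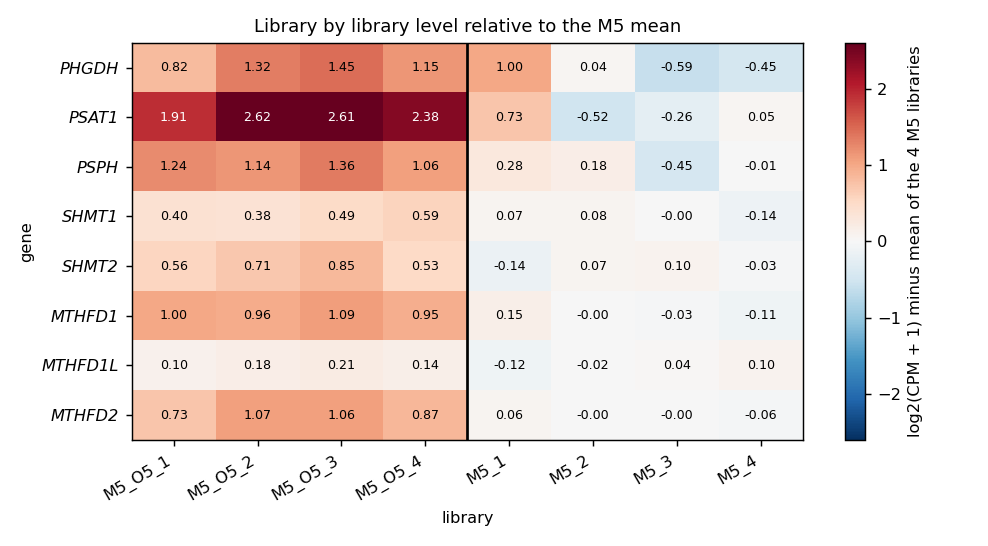
Level of the 8 tested genes in log2(CPM + 1) in each of the 8 libraries relative to the M5 mean, with genes in rows, libraries in columns, and the difference printed and coloured in each cell. PSAT1 shows the deepest colour in M5_O5, and M5_1 stands out from the other M5 libraries in PHGDH and PSAT1.

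Genes outside the 9 were taken from lists of neighbouring pathways, written with earlier results of these data known. In the counts per list, a gene rose if it was higher in M5_O5 at an adjusted p-value under 0.05 in edgeR's test, whatever its fold. This held for 19.5% of all tested genes. Genes that did not pass missed that p-value. Of 17 other folate and one-carbon genes, 14 were tested, 9 rose in M5_O5 and 5 did not pass, with a median log2 fold change of 0.35. ATIC and GART, which spend formyl-folate on purines, rose by 0.57 ± 0.07 (SE, adjusted p = 3.5e-05) and 0.37 ± 0.06 (adjusted p = 0.000171) on the log2 scale in edgeR's test. SLC46A1, the proton-coupled folate transporter, rose by 0.69 ± 0.10 (edgeR adjusted p = 0.000112). TYMS, thymidylate synthase, was the only one of this list called at 2-fold, at 3.80 ± 0.661 CPM against 1.65 ± 0.348 CPM (SD, n = 4, edgeR adjusted p = 0.000312). FPGS, which adds glutamates to folate and was the most abundant of the list in CPM, measured 117 ± 11.6 against 118 ± 10.6 CPM (edgeR adjusted p = 0.910).

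Of 15 genes of glycine cleavage and the methionine cycle, 10 were tested and 6 rose, with a median log2 fold change of 0.32. CTH, which makes cysteine from cystathionine, rose by 1.62 ± 0.23 (SE, edgeR adjusted p = 0.0001), and GCSH, the lipoyl carrier of glycine cleavage, by 1.35 ± 0.20 (adjusted p = 0.000155). AHCY, which clears S-adenosylhomocysteine, rose by 0.49 ± 0.07 (edgeR adjusted p = 0.000113) and MTR, methionine synthase, by 0.28 ± 0.07 (adjusted p = 0.00498). MAT2A, the maker of S-adenosylmethionine, measured 131.6 ± 3.93 CPM against 138.4 ± 6.95 CPM (edgeR adjusted p = 0.309).

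Of 14 genes that supply or use serine, 13 were tested, 2 rose and 11 did not pass, and the median log2 fold change was −0.06. PTDSS1, which places serine into phosphatidylserine, rose by 0.74 ± 0.09 (SE, edgeR adjusted p = 3e-05), and SLC1A5, a neutral amino acid transporter, by 0.33 ± 0.08 (adjusted p = 0.00771). SLC38A2, another neutral amino acid transporter, had a log2 fold change of −0.18 ± 0.08 (edgeR adjusted p = 0.10), and SPTLC1, a subunit of serine palmitoyltransferase, one of −0.15 ± 0.08 (adjusted p = 0.166). The glycolytic enzymes upstream of PHGDH, GAPDH and PGK1, had log2 fold changes of −0.09 ± 0.09 (edgeR adjusted p = 0.452) and 0.01 ± 0.07 (adjusted p = 0.898).

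Of 12 genes of the ATF4 amino acid response, 7 rose and 5 did not pass, with a median of 0.43. ASNS, asparagine synthetase, rose by 2.61 ± 0.37 (SE, edgeR adjusted p = 0.000113), CHAC1, a glutathione-degrading enzyme, by 2.37 ± 0.43 (adjusted p = 0.000772), and SLC7A11, the cystine transporter, by 0.97 ± 0.12 (adjusted p = 5.1e-05). CTH, described above, belongs to this list as well. The most abundant genes of the list, DDIT4 and CEBPB, had log2 fold changes of −0.13 ± 0.08 (edgeR adjusted p = 0.202) and 0.03 ± 0.11 (adjusted p = 0.83), and ATF4 itself one of 0.20 ± 0.10 (adjusted p = 0.121). Within M5_O5, ASNS measured 2.50, 7.98, 8.65 and 4.58 CPM and CHAC1 3.49, 21.6, 23.5 and 13.3 CPM. Library M5_O5_1 was the lowest of its group for both, as it was for PSAT1, PHGDH, MTHFD2 and MTHFD1L. The rest of the list shared this, except CTH and CEBPB. CTH was lowest in M5_O5_4, at 2.26 CPM, and CEBPB was highest in M5_O5_1, at 369.9 CPM.

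No tested gene of these 4 lists or of the cell cycle list fell in edgeR's test. At an unadjusted p-value under 0.05, 1 serine supply gene, SLC38A2, was lower, and DESeq2 gave 0 lower in each list. Across all tested genes, 19.5% were higher and 17.6% lower at the adjusted p-value, or 2421 and 2192 genes. With library size as the only scaling 3858 were higher and 1008 lower, while with DESeq2 fewer were higher, 2127, than lower, 2355.

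Cell cycle genes moved between the same groups. Of 18, 17 rose in M5_O5 and MCM5 did not pass, with a median log2 fold change of 1.07. RRM2, the small subunit of ribonucleotide reductase, rose by 2.22 ± 0.21 (SE, edgeR adjusted p = 5e-06), MCM6 by 1.53 ± 0.18 (adjusted p = 2.1e-05), CDC6 by 1.10 ± 0.13 (adjusted p = 3.1e-05) and CCNB1 by 1.07 ± 0.11 (adjusted p = 1e-05). MKI67 averaged 57.5 ± 2.54 CPM against 25.8 ± 11.6 CPM (SD, n = 4), and TOP2A averaged 73.0 ± 6.53 CPM against 35.7 ± 19.7 CPM. Their summed level was 374 to 407 CPM in M5_O5 and 194 to 297 CPM in M5, where M5_1 was the highest library, as it was for PHGDH, PSAT1, PSPH, MTHFD1 and MTHFD2. The share of the cell cycle genes in the differences of the serine and folate enzymes was not tested. In bulk RNA, fewer cells expressing a gene and less RNA per cell cannot be told apart.

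**Figure D4:**
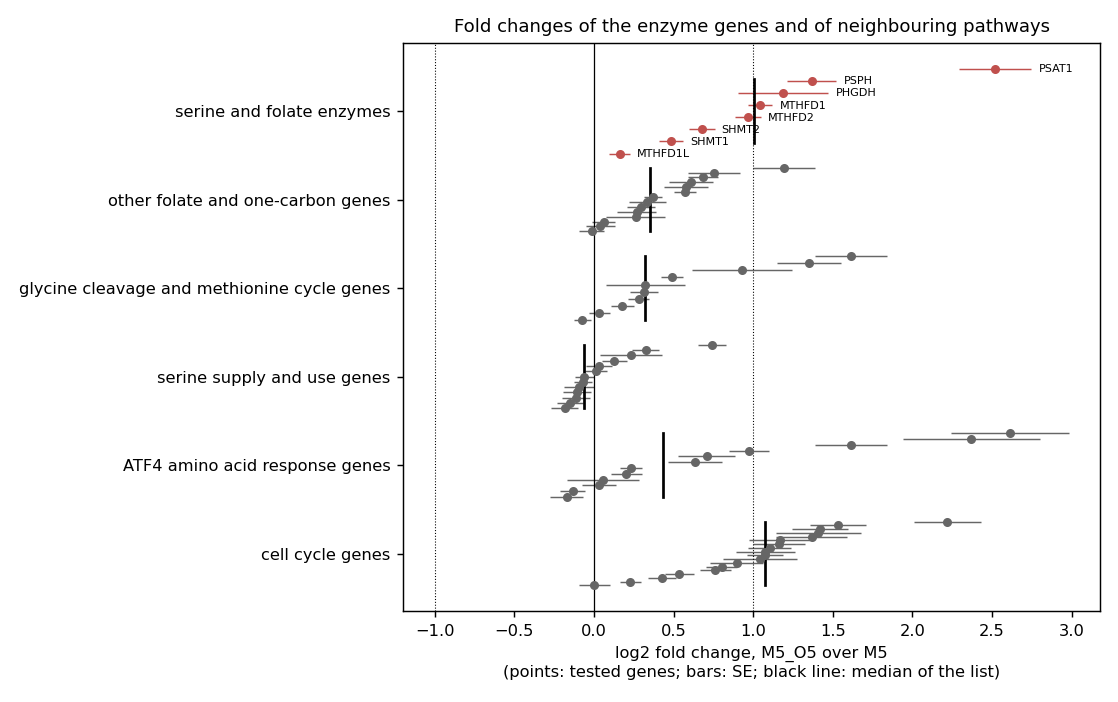
Log2 fold change of M5_O5 over M5 for the 8 tested serine and folate enzymes and for the tested genes of 5 lists, with points for genes, horizontal bars for the SE and a black line at each list's median. The enzymes reach from 0.16 for MTHFD1L to 2.52 for PSAT1, and the dotted lines mark a 2-fold difference in either direction.

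The genes whose log2(CPM + 1) over the 8 libraries was most like the mean of the 9 enzymes were CIITA, PRDX6, ELL3, PLEKHA7 and SLC27A2. Their Pearson correlations lay between 0.994 for SLC27A2 and 0.996 for CIITA. Of 11960 genes averaging 1 CPM or more, 352, or 2.94%, had a correlation above 0.95. With each group's mean taken out, the correlations were 0.938 for CIITA, 0.931 for PRDX6, 0.916 for ELL3, 0.972 for PLEKHA7 and 0.909 for SLC27A2. The points share their libraries and the difference between the groups, and the genes were picked in these same libraries. The correlations are therefore given as a description, and how much of them the group difference sets was not tested.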

How the data were processed

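Total RNA of HaCaT cells under M5 was sequenced in 8 libraries, and one table of 86639 RefSeq transcript rows, 4181 of them further placements, was analysed. The authors filtered and mapped the reads and deposited an estimated count per transcript, not normalized, of which 53.8% were fractional. The deposited TPM and FPKM values are scaled by transcript length and library size, and columns of the authors' group means were not used. The methods name HISAT2 and StringTie, while the submitters' processing notes name HISAT2 2.1.0, Bowtie2 2.2.5, RSEM 1.2.8 and build mm10. The transcripts are human, so no position was taken from the table.

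Estimated counts were summed to 17131 genes by Entrez identifier and rounded. Of these, 17072 received a symbol from RefSeq (GRCh38.p14). Genes were filtered with filterByExpr, leaving 12434, scaled by TMM and compared with edgeR 4.0.16 (R 4.3.3) by the quasi-likelihood test with Benjamini-Hochberg adjustment. SE denotes the standard error of the fitted log2 fold change. The 9 genes and all lists were chosen with earlier results of these data known, so the 9 are described without p-values. Of each other list, the 4 genes with the smallest adjusted p and the 2 with the highest mean CPM were named. Reads shared with pseudogene copies of the enzymes could not be told apart. The markers TYR and KDR were not found among the 17131 genes, and protein identity between paralogs was not analysed here.

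The fit was repeated with DESeq2 1.42.0, with other scalings or filters, with limma 3.58.1 on log2(TPM + 1) or on log2(TPM + 0.1), at unadjusted p-values, with the replicate number as a block, without further placements and without each library in turn. The fits were tested on simulated data. Replicate pairs differed beyond sampling noise, with a chi-square per gene of at least 2.02, so all libraries were counted. Across genes, pairs with M5_1 reached 16.5, 10.6 and 10.4, against 4.06, 3.57 and 2.02 among M5_2, M5_3 and M5_4. Pairs with M5_O5_1 reached 10.7, 11.2 and 7.18, against 3.03, 4.06 and 7.18 among the other M5_O5 libraries. These values measure how much a pair of libraries differs and not in which direction. Whether the positions of M5_1 and M5_O5_1 given above are particular to the genes described was not tested.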

Additional observations from a re-analysis of the deposited data

Results flagged for a closer look

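Of the 9 genes in both groups, 1 sample stood far from the others of its group: ALDH1L2 measured 0.197 CPM in M5_3, which is 3 reads, while each of the other M5 libraries held 1 read. In 18 groups checked this way, chance gives about 1 in 20. The level is that of the smallest counts, and no difference is read from it.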

How the results depend on the processing

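All 8 tested enzymes kept higher means in M5_O5 under every alternative, and none was called lower. Between 3 and 5 were called higher when 1 library was left out, where PHGDH was lost without M5_3 and MTHFD2 gained without M5_O5_1. Of all tested genes, 2.66% to 3.70% were called higher in these fits. MTHFD2 was also called with library size as the only scaling, with upper-quartile scaling and with limma on both TPM scales, and in these MTHFD1L passed the adjusted p-value. These 4 fits called 3.57%, 3.14%, 1.16% and 3.21% of all tested genes higher, in that order. Library size scaling moved the median of all genes from 0.01 to 0.13, and log2 fold changes to 0.60 for SHMT1, 1.16 for MTHFD1 and 0.28 for MTHFD1L. It gave 25 genes called lower, 3858 past the adjusted p-value higher and 1008 lower. Without a filter 71 genes were called lower. With limma on log2(TPM + 1), 144 were called higher and 8 lower, 761 passed lower and 4 serine supply genes rose, and on log2(TPM + 0.1), 18 were called lower, 768 passed lower and 4 serine supply genes rose. The cause of these shifts was not tested. At the unadjusted p-value 1 serine supply gene was lower. With each library left out, 0 to 1 serine supply genes and 0 to 1 ATF4 response genes were lower.

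With the replicate number as a block, 4 enzymes were called and 8 passed, and 2 serine supply and 2 ATF4 response genes were lower. In this fit 2.89% of 12434 tested genes were called higher, and 2703 passed higher and 2552 lower. Samples with the same number correlated at 0.278, 0.175, 0.031 and −0.006 in their deviations, so the numbers were not taken to pair the samples. Depth limits ALDH1L2 most, at no more than 3 counts in a library.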
